A study of Drosophila melanogaster with 24 samples.

Results

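The Jonah genes of Drosophila melanogaster are a family of serine protease genes, and 10 of them (Jon25Bi, Jon25Bii, Jon44E, Jon65Aii, Jon65Aiii, Jon65Aiv, Jon66Ci, Jon66Cii, Jon74E and Jon99Fi) are described here. Each was followed through the 1 probe set on the array that is annotated to that gene and to no other, so the 10 genes are 10 of 18769 probe sets, of which 13647 name 1 gene. All 10 passed the filter on low values, which kept the 11928 probe sets with a Signal of at least 50 on at least 12 of the 24 arrays. RNA came from whole adult virgin flies, aged 3 to 7 days and deprived of food for a short time before collection, from 6 lines that descend from 1 wild-derived base population. Lines H1 and H2 (the H group) were bred each generation from the most aggressive males, lines L1 and L2 (the L group) from the least aggressive males, and lines C1 and C2 (the C group) from males taken without selection. The choice of parents rested on male behaviour in every selected line, and females were not selected. There were 2 arrays for each line and sex, 4 arrays for each group and sex, and each line is 1 breeding population, so that each group rests on 2 populations.

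The Jonah genes encode secreted endopeptidases of the trypsin and chymotrypsin type, which cut dietary protein in the gut lumen, and they are known for strong transcription in the midgut of larvae and adults. Like most digestive proteases of insects they occur in tandem clusters of recent duplicates, and a gene's name gives the polytene chromosome band in which it lies. By gene order in RefSeq (assembly Release 6 plus ISO1 MT), Jon25Bi and Jon25Bii are neighbours on arm 2L, Jon65Aiv, Jon65Aiii and Jon65Aii follow each other on 3L, and Jon66Ci and Jon66Cii are neighbours farther along 3L. Jon74E also lies on 3L, Jon44E on 2R and Jon99Fi on 3R, each without another of the 10 genes beside it, although Jon99Fi has its paralog Jon99Fii as a neighbour. Paralogs can share sequence that a probe reads, and cross-hybridization among them was not tested.

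The deposited values are Signals, the linear intensities that the array software gives for each probe set, and they were analysed as log2(Signal + 16). Differences are on that scale, which understates the change of low values, and levels of different probe sets are not compared. The mean Signal trimmed of its extremes was 497.1 to 498.4 on the 24 arrays, but the median Signal was 124.8 to 143.4 on male arrays and 71.4 to 88.4 on all female arrays except the first of line L1, where it was 118.9. Of 6 midgut markers, 3 were on the array with a probe set of their own and all 3 were kept (mex1, bbg and GATAe). Signal was also summed over all 4 probe sets that name these genes, without the filter. In males the sum was 2344 to 2594 in H, 2564 to 3195 in L and 2496 to 2831 in C. In females it was 2424 to 3124 in H, 3120.1 to 3659 in L and 2541 to 3090 in C, so that each L female array was above each C female array. The first C1 female array carried a summed Signal of 4677 over 8 accessory gland genes of males, against at most 215 on the other female arrays and at least 85287 on male arrays. The summed Signal of 8 kept eggshell genes was 93277 to 113297 in H females, 61171 to 90584 in L females and 80549 to 108409 in C females, so that H and L females did not overlap in it, and its part in differences between females was not tested. One male label names both line numbers of the H group and was read as H2 from the first of them. Over kept probe sets its correlation was 0.386 with the remaining male array of H2, and 0.085 and -0.070 with both male arrays of H1. With the male arrays of L and C it ran from -0.280 (first C1) to 0.078 (first L2). In whole flies, fewer cells of a type and less RNA per cell cannot be told apart. The labels do not say that the 2 samples of a line and sex came from separate cultures, so p-values over arrays measure only the spread between these samples.

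All 10 genes were measured in both sexes of every line. Over the 24 arrays Jon65Aiii had Signals of 16022 to 27574, Jon65Aiv of 16193 to 27698 and Jon74E of 9121 to 19622, on arrays whose highest Signal was 22034 to 34684. Jon66Cii had 65.1 to 377, below the array's median Signal on 9 of 12 male arrays and on 1 of 12 female arrays. Signals were 2861 to 9149 for Jon25Bi, 2109.8 to 7052 for Jon25Bii, 504 to 5315 for Jon44E, 150 to 6237 for Jon65Aii, 393 to 2561 for Jon66Ci and 3049 to 17053 for Jon99Fi. Jon65Aii had the widest spread between line means, 3.41 on the log2 scale between C2 and L2, then Jon44E with 1.89 between C1 and H1, and Jon65Aiii the narrowest, 0.26, where the median over all tested probe sets was 0.41.

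**Figure D1:**
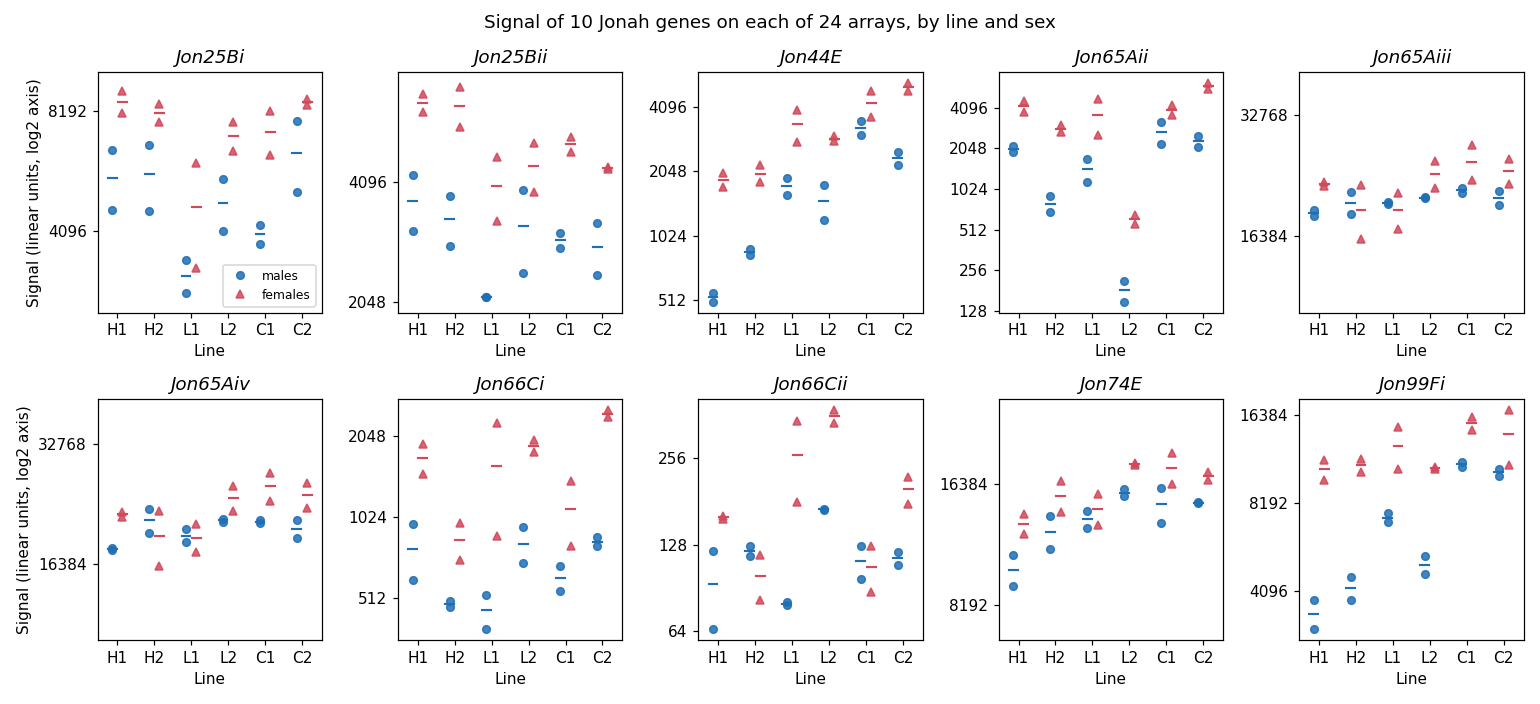
Signal of each Jonah gene on each of the 24 arrays (vertical axis, linear Signal units on a log2 axis, scaled separately for each gene) by line (horizontal axis). Circles are male arrays, triangles female arrays, and dashes the mean of the 2 arrays of a line and sex. Jon44E and Jon99Fi in males are lowest in H1 and H2 and highest in C1 and C2, and Jon65Aii is lowest in L2, at 150 to 214 in males and 566 to 660.1 in females.

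The first comparison was between the sexes, averaged over the 6 lines. An adjusted p under 0.001, the threshold taken for sex, was reached by 7 of 10 genes, and in all 7 the transcript was less abundant in males. Of all tested probe sets, 74.4% passed the same threshold, 44.5% with less in males, so a call was the rule on these arrays. The median difference (male minus female) of the 10 genes was -0.69, and that of all tested probe sets was -0.17. Jon65Aii had the largest difference, -1.29 (SE 0.113), with 150 to 3205.5 and a median of 1820 in males, against 566 to 6237 and a median of 3697 in females. Jon66Ci had -1.17 (SE 0.150), with 393 to 962 and a median of 634 in males, against 708 to 2561 and a median of 1637.5 in females. Jon44E had -1.06 (SE 0.0817) and Jon99Fi -0.96 (SE 0.0788). The ranges of males and females overlapped in all of these when lines were pooled.

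The clustered genes of arm 2L differed less between the sexes, Jon25Bii by -0.77 (SE 0.101) and Jon25Bi by -0.59 (SE 0.115), and Jon66Cii differed by -0.60 (SE 0.111). These 7 calls held under each of the 33 other settings on the log2 scale, with adjusted p between 5e-11 and 0.000538. Among the remaining genes, Jon74E had -0.25 (SE 0.0606, adjusted p = 0.00107 in limma), just outside the threshold, and Jon65Aiv -0.14 (adjusted p = 0.0354) and Jon65Aiii -0.12 (95% interval -0.26 to 0.01). When all arrays were scaled to one median Signal, which moved the median of all tested probe sets to -0.82, all 10 were called lower in males. With sex means removed, Jon65Aiii and Jon65Aiv correlated over the 24 arrays with the array's highest Signal at 0.860 and 0.900, against 0.623 for Jon74E and 0.400 or less for the other 7. The part of this in their small differences was not tested.

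**Figure D2:**
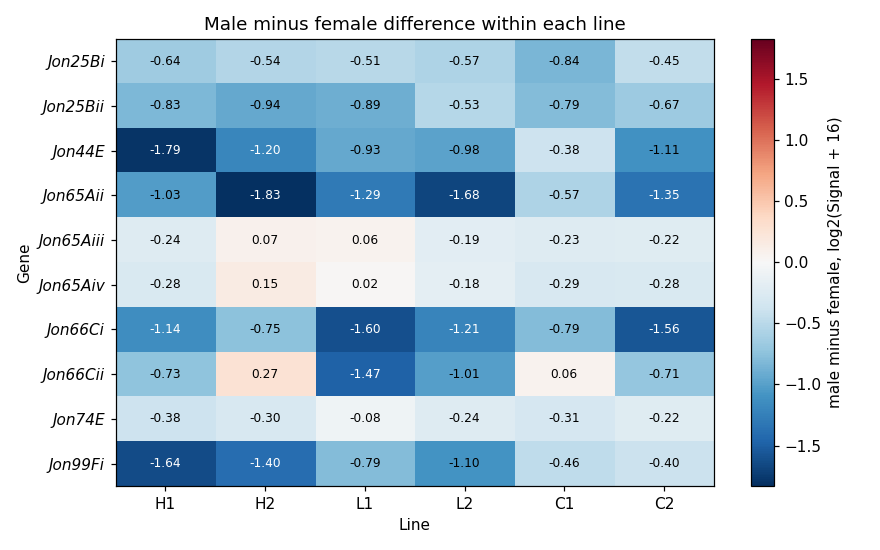
Male minus female difference of each Jonah gene (rows) within each line (columns), in log2(Signal + 16), from the means of 2 arrays per sex. Blue marks less transcript in males. Values were below 0 in all 6 lines for Jon25Bi, Jon25Bii, Jon44E, Jon65Aii, Jon66Ci, Jon74E and Jon99Fi, and for Jon99Fi they ran from -1.64 and -1.40 in H1 and H2 to -0.46 and -0.40 in C1 and C2.

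Over both sexes, 3 of the 10 genes differed among the 6 lines at an adjusted p under 0.001 (Jon65Aii, 9.96e-08; Jon44E, 6.72e-07; Jon99Fi, 7.97e-05), as did 6.56% of all tested probe sets. The call of Jon99Fi was lost when arrays were scaled to one median Signal (adjusted p = 0.00263 in limma). For the test of whether the sex difference varied among lines, 0 of 10 passed and 0.0252% of all tested probe sets did. The lowest adjusted p of a member in that limma test was 0.108, for Jon99Fi, and 3 members had an unadjusted p under 0.05. The groups were then compared as the mean of one pair of lines minus that of another, for males, for females and for the sexes together, and a gene was called where the adjusted p was under 0.05 and the 4 possible differences between lines of the 2 groups all ran the same way.

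Jon44E had the largest difference of the 10 genes between H and C, in males, in females and over both sexes. In males its Signal was 504 and 553 in H1 and 893 and 832 in H2, against 1595 and 1913 in L1 and 1774 and 1210.5 in L2, and against 3025 and 3516 in C1 and 2195 and 2522.5 in C2. No male array of a group overlapped with those of another group. In females it was 1726 and 2009.8 in H1 and 1819 and 2185.5 in H2, against 2818 and 3978 in L1 and 2994 and 2836 in L2, and against 3685 and 4885 in C1 and 4886 and 5315 in C2. Each H female array lay below every L and C female array, whereas the L and C female arrays overlapped.

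Over both sexes Jon44E was lower in H than in C by 3.11-fold (log2 difference H minus C -1.64, SE 0.1001, adjusted p = 2.61e-07 in limma). The difference was -2.01 (SE 0.142) in males and -1.26 (SE 0.142) in females, and these differed by -0.75 (male minus female, 95% interval -1.17 to -0.32), which was not called (adjusted p = 0.151). On the linear Signal this difference between the sexes had the other sign (638.5). H was lower than L by 1.94-fold (-0.96, SE 0.1001, adjusted p = 1.65e-05), with -1.23 in males and -0.69 in females. L was in turn lower than C by 1.60-fold (-0.68, SE 0.1001, adjusted p = 0.000585), with -0.79 in males and -0.57 in females. The order of line means was C1, C2, L1, L2, H2 and H1, from 11.87 to 9.98 on the log2 scale, and within a group neighbours in this order did not pass the test (H1 minus H2 -0.39, adjusted p = 0.153; L1 minus L2 0.23, adjusted p = 0.337; C1 minus C2 0.10, adjusted p = 0.718). H and L were both set against the same C arrays. The H minus C calls of Jon44E held with every array and every line left out and with line as a random block. The L minus C call in females was lost without any 1 of the first L1, either L2, either C2 or the second C1 female array (-0.60 to -0.45, adjusted p from 0.0710 to 0.135), and without L2 or C2 (-0.47 and -0.44), and that in males without C1 (-0.55, adjusted p = 0.0877). The H minus L call in females was lost without H1 or L1 (-0.64 and -0.59).

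Jon99Fi followed a like order in males. Its Signal in males was 3049 and 3822 in H1 and 4580.3 and 3841 in H2, against 7576 and 7055 in L1 and 5429 and 4691 in L2, and against 11326 and 10928.5 in C1 and 10745 and 10150.5 in C2. The male arrays of the 3 groups did not overlap. In females it was 11543.5 and 9874 in H1 and 10517 and 11642 in H2, against 10711 and 14921.5 in L1 and 10718 and 10933 in L2, and against 14605 and 16154 in C1 and 11089 and 17053 in C2. The female arrays of H overlapped with those of both other groups.

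In males Jon99Fi was lower in H than in C by 2.84-fold (-1.51, SE 0.136, adjusted p = 3.12e-05 in limma), lower in H than in L by 1.60-fold (-0.68, adjusted p = 0.00843) and lower in L than in C by 1.77-fold (-0.83, adjusted p = 0.00395). In females the H minus C difference was -0.42 (95% interval -0.71 to -0.13, adjusted p = 0.102), L minus C -0.31 (adjusted p = 0.267) and H minus L -0.11 (95% interval -0.40 to 0.19), and none was called. The H minus C difference in males minus that in females was -1.09 (SE 0.193, 95% interval -1.50 to -0.68, adjusted p = 0.0255), the 1 difference between the sexes called in the family, where 0.394% of all tested probe sets were called (0.184% below 0). That call was lost on leaving out any 1 of 9 arrays, which are the male arrays of H and C other than the second of H1, with the first H1 and the second H2 female arrays (values -1.15 to -1.01, adjusted p from 0.0561 to 0.0820), and on leaving out any of H1, H2, C1 and C2 (-1.21 to -0.97). Over both sexes the H minus C difference was -0.96 (SE 0.0965, adjusted p = 1.57e-05), H minus L -0.39 (adjusted p = 0.0165) and L minus C -0.57 (adjusted p = 0.00176). The H minus L call was lost without H1 or L1 (-0.31 and -0.20), in males also without the first H1 male array (-0.60, adjusted p = 0.0507), and the L minus C call without L2 (-0.38; -0.56 in males). With line as a random block, Jon44E and Jon99Fi kept their H minus C calls over both sexes and in males (adjusted p of 9.3e-05 and 0.00166 over both sexes), and Jon44E also in females and, between H and L, over both sexes and in males. The difference between the sexes of Jon99Fi also held (adjusted p = 0.0336). It sets males against females within each line, so this block does not widen its error and is no check over lines. Every other call between groups described here was lost with that block, in which arrays of 1 line correlated at 0.221.

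**Figure D3:**
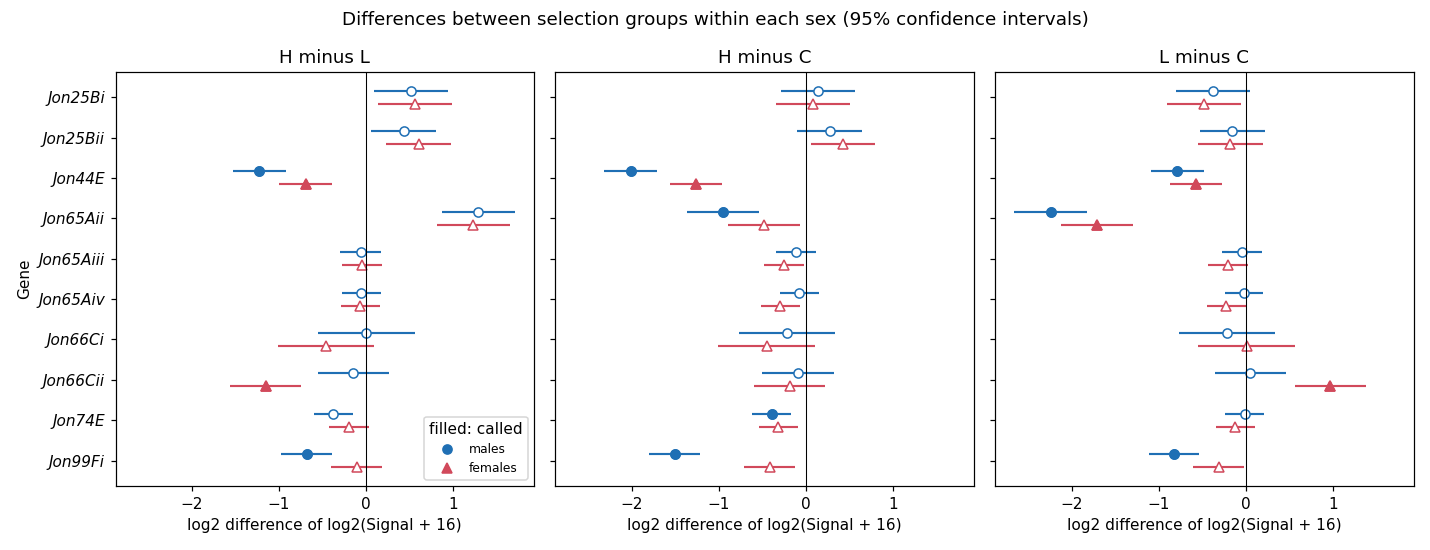
Differences between selection groups for each Jonah gene (rows) in males (circles) and females (triangles), in log2(Signal + 16), with 95% confidence intervals from limma over 24 arrays; panels from left to right show H minus L, H minus C and L minus C, and filled symbols mark called differences. Jon44E is filled in every panel and sex, at -2.01 in males and -1.26 in females for H minus C, and Jon99Fi is filled in males only, where its H minus C difference is -1.51.

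The 3 genes of the cluster on arm 3L did not behave alike. Jon65Aii in males had Signals of 1928 and 2144 in H1 and 903 and 694 in H2, against 1712 and 1149.8 in L1 and 214 and 150 in L2, and against 2189 and 3205.5 in C1 and 2535 and 2108 in C2. In females they were 4599.7 and 3774 in H1 and 2688 and 3037 in H2, against 2549.6 and 4699 in L1 and 660.1 and 566 in L2, and against 3619.6 and 4292 in C1 and 5590.3 and 6237 in C2. The L2 arrays were lowest in both sexes with no overlap with any other line of that sex. On the same arrays Jon65Aiii, next to it, stayed between 16022 and 27574, and its L1 minus L2 difference was -0.17 (95% interval -0.40 to 0.06) and that of Jon65Aiv -0.23.

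Jon65Aii was lower in L than in C by 3.94-fold over both sexes (-1.98, SE 0.138, adjusted p = 5.55e-07 in limma), by -2.24 in males and -1.71 in females. This rested in large part on 1 line. Without L2 the difference was -0.64 (adjusted p = 0.0275), and -0.81 in males and -0.48 in females, which were not called, and without L1 it was -3.31. The call in females was also lost without the first L1 female array (-1.49, adjusted p = 0.000617, lines not of 1 sign). L1 was higher than L2 by 6.34-fold (2.67, SE 0.195, adjusted p = 4e-07), and H1 was higher than H2 by 1.92-fold (0.94, SE 0.195, adjusted p = 0.0108), a call lost without the first H1 female or the second H2 male array (0.87 and 0.85). H was lower than C over both sexes (-0.72, SE 0.138, adjusted p = 0.00357) and in males (-0.95, adjusted p = 0.00967). These calls were lost without H2 (-0.25, and -0.28 in males), and that over both sexes also without C2 (-0.62). H minus L was 1.26 (adjusted p = 2.63e-05), but H2 lay below L1, so that the lines were not of 1 sign and the gene was not called, and without L2 the difference was -0.07.

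Jon65Aiii and Jon65Aiv were not called in any comparison of groups or lines. Their H minus C differences over both sexes were -0.19 each (95% intervals -0.35 to -0.02 and -0.34 to -0.03, adjusted p = 0.145 and 0.130 in limma). Jon65Ai, the next gene of the cluster, is not among the 10 and was looked at after its values were seen. It had Signals of 1614 and 1619 in L1 males against 2796 and 4253 in L2 males, and 3803.5 and 5379.9 in L1 females against 5777 and 7012 in L2 females. L1 minus L2 was thus -0.79 (SE 0.135, adjusted p = 0.00121) for Jon65Ai, opposite in sign to its neighbour Jon65Aii, while H1 minus H2 was 0.89 (adjusted p = 0.00126), the same sign as for Jon65Aii.

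The Jon25B pair on arm 2L was higher in H than in L. Jon25Bii in females had 6782 and 6116 in H1 and 7052 and 5621 in H2, against 3270.1 and 4722 in L1 and 5114 and 3874 in L2. The 4 H arrays were above the 4 L arrays, and also above the 4 C arrays, at 4409 to 5304. In males it had 3086 and 4261 in H1 and 2835.5 and 3773 in H2, against 2109.8 and 2115 in L1 and 3913 and 2428 in L2, and the groups overlapped. Jon25Bi had 7668 to 9149 in H females against 3312 to 7651.5 in L females, and 4606 to 6735 in H males against 2861 to 5525 in L males. Over both sexes H minus L was 0.52 for Jon25Bii (SE 0.123, adjusted p = 0.0139 in limma) and 0.54 for Jon25Bi (SE 0.141, adjusted p = 0.0232), and neither was called within a sex. The call of Jon25Bi was lost without any 1 of 7 of the 16 H and L arrays (0.47 to 0.52, adjusted p from 0.0531 to 0.0642), namely the first L1 male, both second L2, both second H1, the second H2 male and the first H2 female array, and without H1, H2 or L1 (0.23 to 0.56). That of Jon25Bii was lost without H1 or L1 (0.47 and 0.34). Against C, Jon25Bii had an H minus C difference of 0.35 (adjusted p = 0.0889) and Jon25Bi an L minus C difference of -0.43 (adjusted p = 0.0791), and neither was called.

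Jon66Cii was called between groups in females but not in males. It had 162 and 157.5 in H1 females and 117.5 and 82.4 in H2 females, against 346 and 179.7 in L1 and 377 and 340.4 in L2 females, and against 87.8 and 126.5 in C1 and 178 and 221 in C2 females. Each H female array was below each L female array, while L and C overlapped. In males all arrays of all groups lay between 65.1 and 171. H minus L was -1.15 in females (SE 0.192, adjusted p = 0.00249 in limma) and -0.14 in males (95% interval -0.55 to 0.26), and these differed by 1.01 (male minus female), which was not called (adjusted p = 0.219). L minus C was 0.97 in females (SE 0.192, adjusted p = 0.00898) and 0.05 in males. Without the first L1 female array, whose median Signal stood apart, L minus C in females was 0.75 (adjusted p = 0.0366, lines not of 1 sign) and not called, and H minus L was -0.93 (adjusted p = 0.00955) and still called. Without both that array and the first C1 female array, L minus C was 0.63 (adjusted p = 0.0951). Without H2 or L2 the H minus L call in females was lost (-0.85 and -0.91), and without L2 or C1 the L minus C call (0.72 and 0.56). Each L female array had a higher midgut marker sum than each C female array, as given above. That sum was 2424 to 3124.1 in H females and 3120.1 to 3659 in L females. The part of midgut content in these differences was not tested. Over both sexes H minus L was -0.65 (adjusted p = 0.00602; -0.59 and -0.29 and not called without H2 or L2), and L1 was below L2 by -0.72 (SE 0.192, adjusted p = 0.0203), a call that any 1 of 5 of the 8 L arrays (the first L1 male, second L1 female, both L2 male and first L2 female arrays) ended when left out (-0.73 to -0.50, adjusted p from 0.0544 to 0.0649).

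Jon66Ci, its neighbour, was called in no comparison of groups or lines. In females it had 1483 and 1911 in H1 and 708 and 972 in H2, 867 and 2302 in L1 and 1792 and 1980.1 in L2, and 802 and 1396 in C1 and 2412 and 2561 in C2. Between lines of 1 group, H1 minus H2 was 0.81 (SE 0.260, adjusted p = 0.101 in limma) and C1 minus C2 -0.83 (SE 0.260, adjusted p = 0.0599), and neither was called. Jon66Ci also had the largest spread between the 2 arrays of a line and sex, an SD of 0.40 on the log2 scale.

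Jon74E differed by a small amount in 1 direction. In males it had 9121 and 10931 in H1 and 11299 and 13638 in H2, against 12747 and 14086 in L1 and 15293 and 15911 in L2, and against 13112 and 16084 in C1 and 14689.6 and 14755 in C2. The H and C arrays overlapped by 1 array on each side. H was lower than C by 1.28-fold over both sexes (-0.35, SE 0.0742, adjusted p = 0.00628 in limma) and by -0.39 in males (adjusted p = 0.0385), and lower than L by 1.22-fold over both sexes (-0.29, adjusted p = 0.0227). The first call was lost without H1 (-0.22), the second without any 1 of 9 arrays (-0.39 to -0.32, adjusted p from 0.0501 to 0.156; both first H male, both C2 male and the second C1 male arrays and all 4 L2 arrays) and without H1, C1 or C2. The third was lost without any 1 of 7 arrays (-0.28 to -0.25; both H1 first, both second L1, the second L2 male, first H2 male and second H2 female arrays) and without H1 or L2 (-0.15 and -0.14). It was also lost with quantile normalization within each sex. The H1 male arrays, lowest for Jon74E, had highest Signals of 23103 and 22034, the lowest of the 24 arrays. Jon74E correlated with the array's highest Signal at 0.623, and the part of this in its differences was not tested.

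Counted over the family, 6 of 10 genes were called between H and L over both sexes, where 7.6% of all tested probe sets were called, and 2 of them were higher and 4 lower in H (3.03% and 4.57% of all). In males 2 were called (3.62% of all), both lower (2.2%), and in females 2 (4.78%), both lower (2.9%). No difference between the sexes was called (0.151% of all; 3 members had an unadjusted p under 0.05 in limma). When arrays were scaled to one median Signal, which moved the median of all tested probe sets from -0.02 to 0.13, Jon74E (-0.12) and Jon99Fi (-0.23; -0.59 in males) were not called, leaving 2 higher and 2 lower over both sexes, and in females 3 were higher (Jon25Bi 0.81, Jon25Bii 0.85 and Jon65Aii 1.48) and Jon66Cii lower, while Jon44E was not called (-0.45). Between H and C all calls were lower in H, 4 over both sexes (8.79% of all called, 5.48% lower), 4 in males (5.52% called, 3.82% lower) and 1 in females (3.42% called, 1.77% lower). Between L and C 3 genes were called over both sexes (5.57% of all) and 3 in males (2.48%), all lower in L (3.06% and 1.6%), and 3 in females (3.02%), 1 higher (1.76%) and 2 lower (1.26%). No difference between the sexes was called for L minus C (0.0755% of all; 2 members had an unadjusted p under 0.05). The same scaling ended the H minus C calls of Jon74E (-0.26, and -0.30 in males), of Jon65Aii in males (-0.86) and of the Jon99Fi difference between the sexes (adjusted p = 0.102), and the L minus C calls of Jon44E in males (-0.78) and of Jon66Cii in females (0.84). With the first male samples of H1 and H2 exchanged, 7 calls were lost, namely Jon65Aii for H minus C over both sexes and in males and for H1 minus H2 (0.40), Jon74E for H minus L and for H minus C in males, and Jon44E in females for H minus L and L minus C. The medians of the 10 genes were -0.14 for H minus L, -0.26 for H minus C and -0.15 for L minus C, against -0.02, -0.03 and -0.01 over all tested probe sets.

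Within groups, 1 gene was called between H1 and H2 (4.4% of all tested probe sets), higher in H1 (1.97%), 2 between L1 and L2 (13.7%), 1 higher and 1 lower in L1 (7.75% and 5.99%), and 0 between C1 and C2 (9.09%; 3 members had an unadjusted p under 0.05 in limma). Members whose arrays did not overlap between groups numbered 2 in males and 4 in females between H and L (7.03% and 6.65% of all tested probe sets), 2 and 3 between H and C (13.7% and 6.56%) and 3 and 0 between L and C (7.65% and 4.47%). When the line was the replicate, with limma on 6 line means, 0 of 10 genes and 0 of 11928 probe sets were called in any of the 3 comparisons (0% each). The unadjusted p was under 0.05 for 4, 2 and 3 members (H minus L, H minus C, L minus C), against 5.32%, 5.17% and 4.59% of all tested probe sets. The lowest adjusted p of a member was 0.574, 0.299 and 0.972 in these tests, each for Jon44E, whose H minus C difference had a 95% interval of -2.05 to -1.23 over lines.

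Genes of 1 cluster ranged from closely related to unrelated in how they varied over the arrays. With sex means removed, the 5 pairs of genes within a cluster had correlations over 24 arrays with a median of 0.45 (-0.13 to 0.96), and the 40 other pairs a median of 0.16 (-0.55 to 0.89). These are descriptions, since arrays of a line share their flies' ancestry and arrays share their scaling. Jon65Aiii and Jon65Aiv were closest, at 0.96 (0.83 over 12 male and 0.99 over 12 female arrays), and both followed the highest Signal of the array, as given above. Jon65Aii had 0.01 with Jon65Aiii and -0.13 with Jon65Aiv. Jon25Bi and Jon25Bii had 0.75, and Jon66Ci and Jon66Cii 0.45. The second closest pair was Jon44E and Jon99Fi, on different chromosomes, at 0.89 (0.95 over male and 0.72 over female arrays), and the next pair from different clusters was Jon44E and Jon74E at 0.69. The lowest was Jon65Aii with Jon66Cii at -0.55.

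**Figure D4:**
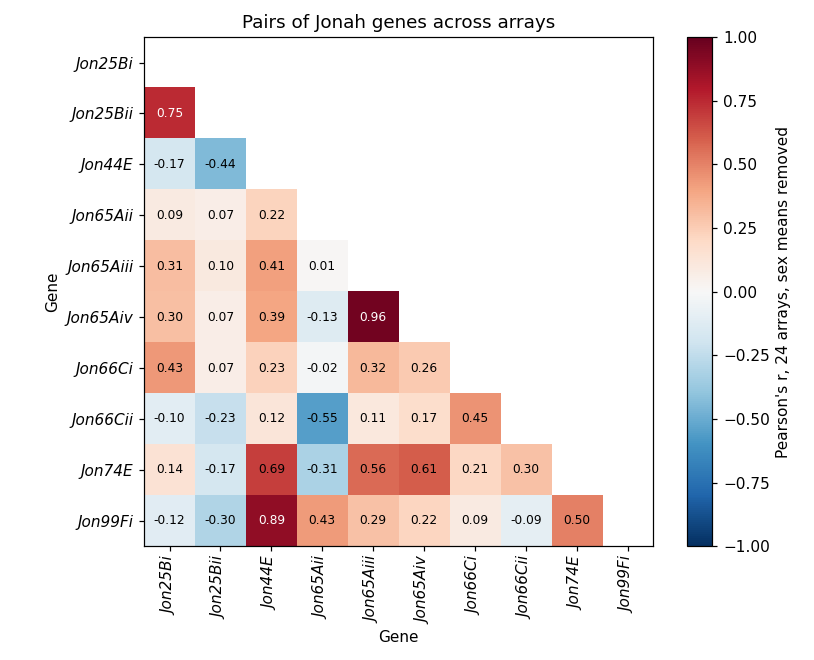
Pearson's r for each pair of Jonah genes over 24 arrays, in log2(Signal + 16) with the mean of each sex removed; rows and columns are genes and red marks positive values. Off the diagonal the darkest red squares are Jon65Aiii with Jon65Aiv (0.96) and Jon44E with Jon99Fi (0.89), whereas Jon65Aii is at 0.01 and -0.13 with Jon65Aiii and Jon65Aiv of the same cluster.

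Over the 6 line means, none of the 5 pairs within a cluster passed an adjusted p under 0.05 in an exact two-sided permutation test with adjustment over the 5. Jon65Aiii and Jon65Aiv had Pearson's r of 0.954 (exact p = 0.0194, adjusted 0.097) and Spearman's rho of 0.771 (exact p = 0.103, adjusted 0.258), and r was 0.978 without the 2 lines farthest from the median. Jon25Bi and Jon25Bii had r of 0.729 (exact p = 0.0958, adjusted 0.24) and rho of 0.371 (exact p = 0.497, adjusted 0.621), with r of 0.917 without L1 and C2. Jon66Ci and Jon66Cii had r of 0.600 (exact p = 0.217, adjusted 0.362) and rho of 0.8286 (exact p = 0.0583, adjusted 0.258), with r of 0.634 without C2 and H2. Jon65Aii had r of 0.017 with Jon65Aiii (exact p = 0.985, adjusted 0.985) and -0.161 with Jon65Aiv (exact p = 0.869, adjusted 0.985), with rho of 0.600 (exact p = 0.242, adjusted 0.403) and 0.143 (exact p = 0.803, adjusted 0.803). Over the 4 lines other than L2 and H2 these r were 0.830 and 0.812. The 2 lines left out were chosen from the same values as the farthest from the median, so these r are descriptions only.

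Outside the list, the gene most like each member over the 24 arrays, with sex means removed and 10618 probe sets searched, was CG9119 for Jon25Bi (r 0.852), CG31674 for Jon25Bii (0.800), temp for Jon44E (0.868), CG9801 for Jon65Aii (0.870), Hsc70-4, a heat shock cognate chaperone, for Jon65Aiii (0.957), the trypsin gene alphaTry for Jon65Aiv (0.965), Ag5r2 for Jon66Ci (0.808), CG14495 for Jon66Cii (0.776), the proton pump subunit gene Vha100-1 for Jon74E (0.844) and Sam-S, which encodes S-adenosylmethionine synthetase, for Jon99Fi (0.794). The second was alpha-Est5 (0.823), Npc2f (0.788), CG4629 (0.8289), rhi (0.865), the ribosomal protein gene RpL3 (0.951), whe (0.963), ND-B14.7 (0.760), CG2004 (0.773), the collagen gene vkg (0.844) and dpy (0.790) in the same order. These are the highest of many correlations over arrays of 6 lines and are given without a test.

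The 3 further Jonah genes on the array with probe sets of their own lie outside the 10 and were examined after their values were seen. Jon65Ai was lower in H than in C (-0.59, SE 0.0956, adjusted p = 0.000983 in limma), Jon99Ci was higher (0.66, SE 0.133, adjusted p = 0.00477), and Jon25Biii was lower in L than in C (-0.40, SE 0.0852, adjusted p = 0.00852). Each of these calls was lost on leaving out some single line. Without H2 the H minus C difference was -0.15 for Jon65Ai (adjusted p = 0.535) and 0.18 for Jon99Ci (adjusted p = 0.586), and neither was called, nor was Jon99Ci without C1 (0.48). Without L1 or C2 the L minus C difference of Jon25Biii was -0.31 and -0.27 and not called. Jon99Ci was at 2439 to 5102 in H males against 1485 to 3212 in C males, and no other Jonah gene named here was called higher in H than in C over both sexes. Jon65Ai and Jon25Biii were lower in males, by -1.02 and -0.51, whereas Jon99Ci had a male minus female difference of 0.29 (adjusted p = 0.0215, not called), above 0 in all 6 lines.

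Among 21 other digestive proteases, which include the trypsins of the alphaTry cluster, 19 had a probe set of their own and 16 were kept. Over both sexes, 1 of 16 was called between H and L (etaTry, -0.46), 3 between H and C, all lower in H (CG18179 -1.63, etaTry -0.42 and yip7 -0.26), and 2 between L and C, both lower in L (CG18179 -2.44 and thetaTry -0.75), where 7.6%, 8.79% and 5.57% of all tested probe sets were called. For H minus C, CG18179 was not called without C1 (-0.86), etaTry without H2 or C2 (-0.32 and -0.31) and yip7 without any 1 of the 4 lines (-0.28 to -0.24). For L minus C, thetaTry was not called without L1 (-0.29). The medians of the 16 were -0.03, -0.19 and -0.13 in these comparisons. Between males and females 6 of 16 were called, 5 of them lower in males, where 74.4% of all tested probe sets were called. Of 15 kept enzymes of other digestive kinds, such as maltases, lysozymes and lipases, 9 were called between the sexes, 7 higher and 2 lower in males, and 2 (both higher), 3 (all higher) and 4 (2 higher and 2 lower) were called for H minus L, H minus C and L minus C, against the same shares of all tested probe sets. Among the 3 midgut markers, mex1 was lower in males than in females by -0.32 (adjusted p = 4.6e-06 in limma). GATAe had a male minus female difference of -0.31 (adjusted p = 0.00627) and bbg of 0.07 (adjusted p = 0.104), and neither was called. Between groups, bbg was lower in H than in L (-0.50, adjusted p = 1.08e-05) and than in C (-0.29, adjusted p = 0.00142). Without L1 its H minus L difference was -0.23 and still called, and in males it was -0.47 and not called (lines not of 1 sign). L1 was above L2 in bbg by 0.54 (adjusted p = 0.000114 in limma). For H minus C, mex1 and GATAe had 0.07 and 0.17, and for H minus L -0.11 each, and none of these was called. For L minus C all 3 markers were above 0 (mex1 0.17, bbg 0.21 and GATAe 0.28) and not called. For bbg the adjusted p was 0.0158 in limma, but the lines were not of 1 sign. The part of midgut content in the differences of the Jonah genes was not tested.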

How the data were processed

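RNA of 24 samples, each of whole flies of 1 line and sex, was hybridized to Affymetrix arrays by the authors, who computed the deposited Signal of each probe set, a linear intensity, from matched and mismatched probes with MAS5 and scaled each array. Detection calls were not used here. Per array, the number of arrays rather than a read depth limits the precision. A linear model on log2(Signal + 16), fitted with limma 3.58.1 under R 4.3.3, had a coefficient per line and sex (12 in all), moderated variances, two-sided tests and Benjamini-Hochberg adjustment over 11928 probe sets with a Signal of at least 50 on at least 12 arrays. The script was tested on simulated data. Thresholds were 0.001 for sex, line and line by sex and 0.05 for contrasts. The members and lists were chosen with earlier results of these data known, and the text names all 10 members, the 2 genes most like each, and called members of the protease list. For other genes with several probe sets, the one with the highest mean was used. Gene names and chromosome arms come from RefSeq (Release 6 plus ISO1 MT). Alternatives were other filters, pseudocounts and scalings, analysis of variance on the Signal as in the methods, a replicate block, line as a random block, exchanged H male labels, and leaving out arrays or lines, the last also, for genes outside the 10, chosen after seeing the data. No sequence was used here.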

Additional observations from a re-analysis of the deposited data

Results flagged for a closer look

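Of 60 sets of 4 arrays (10 genes in each group and sex), 6 held an array far from the other 3 by Dixon's test at the 95% level, which flags about 1 in 20 sets by chance. In L females, the second L1 array was high for Jon44E (3977.7) and for Jon99Fi (14921.5). In H females, the second H2 array was low for Jon65Aiii (16021.7) and Jon65Aiv (16192.8), and its highest Signal, 23755, was the lowest among the 12 female arrays. In C males, the second C2 array was low for Jon65Aiv (19000.8), and in H males, the first H1 array was low for Jon66Cii (65.1). The H minus C difference of Jon99Fi in males minus that in females was -1.09, called by limma in a test of the difference itself, and this call was lost under 15 of 38 alternatives on the log2 scale and in the analysis of variance on the Signal.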

How the results depend on the processing

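Counts of the 10 genes called are given here with the count under the settings of the report in brackets. Counts that stayed within 1.5 times of it are mostly not listed. Among these, with arrays scaled to one median Signal, H against L gave 4 (6) and H against C 3 (4) over both sexes. Without the filter the H minus C difference between the sexes gave 0 (1), and with a pseudocount of 64 C1 against C2 gave 1 (0). With arrays scaled to one median Signal, H against L gave 1 in males (2) and 4 in females (2), H against C gave 2 in males (4), and its difference between the sexes 0 (1). Between L and C in females, 2 were then lower and 0 higher (2 and 1), and between L1 and L2 1 was higher and 2 lower (1 and 1; 2 and 1 with quantile normalization). Ordinary analysis of variance on the Signal gave 0 for H against L in males (2), for the H minus C difference between the sexes (1) and for H1 against H2 (1). Arrays with the same replicate number were not treated as paired under the settings of the report. Differences of replicate 1 minus replicate 2 correlated between lines and sexes at -0.246 to 0.211 (median 0.049, 16 of 66 over 0.1). These correlations are given without a test. With a replicate block L1 against L2 gave 4 (2) and C1 against C2 1 (0), with other counts within 1.5 times. With line as a random block H against L gave 1 over both sexes (6), 1 in males (2) and 0 in females (2), H against C 2 over both sexes (4) and 2 in males (4), and L against C 0 over both sexes, in males and in females (3 each). With the first male samples of H1 and H2 exchanged, H against L in females gave 1 (2), H against C in males 2 (4) and H1 against H2 0 (1).

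Without line H1, H against L gave 2 over both sexes (6), 1 in males (2) and 1 in females (2). Without H2, H against L in males gave 4 (2). Without L2, L against C gave 1 in males and 0 in females (3 each). The H minus C difference between the sexes gave 0 (1) without H1, H2, C1 or C2. Without both the first C1 and the first L1 female arrays, chosen after seeing the data, L against C in females gave 0 (3) and H1 against H2 2 (1).

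Leaving out 1 array at a time gave 0 for all 3 comparisons over line means, 0 to 1 for C1 against C2, 0 to 2 for H1 against H2 and 1 to 4 for L1 against L2. H against C then gave 4 to 6 over both sexes, 3 to 4 in males, 1 to 2 in females and 0 to 2 between the sexes, H against L 4 to 6, 1 to 3, 2 to 5 and 0 to 1, and L against C 3 to 4, 3, 0 to 4 and 0 to 1 in the same order. Sex gave 7 to 8, line 3 to 4 and line by sex 0. The correlation over line means was 0.610 to 0.806 for Jon25Bi and Jon25Bii, -0.167 to 0.225 for Jon65Aii and Jon65Aiii, -0.303 to 0.0095 for Jon65Aii and Jon65Aiv, 0.931 to 0.970 for Jon65Aiii and Jon65Aiv and 0.388 to 0.661 for Jon66Ci and Jon66Cii. By sex, Jon65Aii and Jon65Aiii had -0.043 over male and -0.049 over female line means, and Jon65Aiii and Jon65Aiv 0.995 over female line means (exact permutation test, adjusted p = 0.00695).

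For single genes and comparisons, 3437 alternative values kept direction and side of the threshold, 85 passed it newly, 139 no longer passed it and 6 changed sign. H minus L of Jon65Aii without L2 was -0.073 over both sexes, -0.142 in males and -0.0048 in females. H1 minus H2 of Jon44E was 0.0084 with the male samples exchanged. The difference between the sexes of Jon44E on the linear Signal was 293.65 for H minus L and 638.5 for H minus C. Its sign depended on the scale, with mean Signals in H and C of 695.5 and 2815 in males and 1935 and 4693 in females. The cause of the other changes was not tested. The 2 arrays for each line and sex and the 2 lines for each group limit the precision of all differences.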
